A study of Mus musculus with 7 samples.

Results

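The sterol and fatty acid synthesis genes described here are 30 mouse genes, found by their symbols in a table of read counts for 24062 genes: the enzymes that build cholesterol and long-chain fatty acids, the proteins that control those enzymes, and 2 transporters that export cholesterol. All 30 symbols were found and each gene passed the filter on low counts, which left 15188 genes to test. RNA-seq was made from whole spleens of mice aged 2 to 3 months. The mutant group was 3 enlarged spleens (mutants 1 to 3) from mice of genotype Vav1-iCre;Brca1F22-24/F22-24, also written Brca1∆/∆, in which a Cre recombinase driven by the blood-lineage gene Vav1 acts on floxed Brca1 exons 22 to 24. The wild-type group was 4 spleens (wild types 1 to 4) labelled C57BL6 or Brca1+/+; no Cre or floxed allele is listed for it, so the recombinase, the floxed alleles and any difference of background cannot be told apart from the loss of Brca1. In the mutants the alleles can recombine only where Cre was active, so other cells of the organ may keep an intact Brca1.

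The libraries held 51680976, 30660980 and 35670644 counts for mutants 1 to 3 and between 26889712 and 63612532 for the wild types. Values are CPM, read counts scaled to library size, here with TMM factors (trimmed mean of M values), and "rose" and "fell" mark an adjusted p under 0.05 in edgeR's quasi-likelihood test, adjusted by Benjamini-Hochberg over all 15188 genes. Brca1 itself, over its whole gene, was at 67.6, 47.1 and 42.7 CPM in mutants 1 to 3, against a wild-type range of 15.7 to 72.8 CPM, a difference of 0.44 on the log2 scale (SE 0.51, edgeR adjusted p = 0.490); a count over the whole gene cannot show whether exons 22 to 24 were lost. Without wild types 1 and 2 this difference was 1.55 (edgeR adjusted p = 0.0129). The organ differed in its cells as well. The 8 B-cell markers all fell, with a summed level of 27.5 to 211 CPM in mutants and 3830 to 5190 CPM in wild types, and the 10 immature T-cell markers all rose, with 3041 to 6096 CPM in mutants and 417 to 531 CPM in wild types. Of 10 dividing-cell markers 8 rose (5871 to 6754 CPM in mutants, 869 to 3978 CPM in wild types), and all 7 measured monocyte markers fell (126 to 510 CPM in mutants, 1756 to 2318 CPM in wild types). Among the wild types, spleens 1 and 2 held 5495 and 11436 CPM of erythroid markers and 414 and 13174 CPM of exocrine pancreas markers. Calls lost against wild types 3 and 4 only are given for the genes and lists named. Mutant 1 held 16.5 CPM of 6 liver markers, against 0.0352 and 0.163 CPM in mutants 2 and 3. The wild types held 0.0885 to 0.741 CPM of them. In whole organs, fewer cells of a type and less RNA per cell cannot be told apart, and the part of the cell makeup in the differences below was not tested.

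Cholesterol is built from acetyl-CoA through mevalonate, farnesyl diphosphate, squalene and lanosterol, and fatty acids are built from the same acetyl-CoA through malonyl-CoA. Both routes are switched on by the SREBP transcription factors, which Scap carries out of the endoplasmic reticulum when sterol is scarce and which the Insig proteins hold back when it is plentiful. Export works the other way round: the liver X receptors (LXR), which sense oxysterols, raise the transporters Abca1 and Abcg1, and they also raise Srebf1 and Scd1. Dividing lymphocytes are known to make much of their own membrane lipid.

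The promoters of these genes are shown first, since the sterol enzymes are known to share control by SREBP together with the factor NF-Y, which binds CCAAT. RefSeq sequences on GRCm38.p6 were matched for 24 of the 30 members, and the 250 bases before each annotated start were searched on both strands for CCAAT and for TCACNCCAC, a form of the sterol regulatory element. Those of 4 genes are printed: Hmgcs1, the one member with the sterol element; Mvk and Idi1, mevalonate pathway genes that rose; and Fasn, a fatty acid gene that rose. They read 5′ to 3′ along the gene, with CCAAT or its complement ATTGG in capitals, and in Hmgcs1 also the sterol element TCACCCCAC.
Hmgcs1, chr13:119690101-119690350, plus strand: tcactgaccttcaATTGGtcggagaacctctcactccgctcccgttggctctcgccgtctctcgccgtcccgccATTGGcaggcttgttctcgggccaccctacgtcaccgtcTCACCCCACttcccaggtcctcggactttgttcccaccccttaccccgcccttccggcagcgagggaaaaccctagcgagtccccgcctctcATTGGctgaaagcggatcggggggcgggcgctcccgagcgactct
Mvk, chr5:114444019-114444268, plus strand: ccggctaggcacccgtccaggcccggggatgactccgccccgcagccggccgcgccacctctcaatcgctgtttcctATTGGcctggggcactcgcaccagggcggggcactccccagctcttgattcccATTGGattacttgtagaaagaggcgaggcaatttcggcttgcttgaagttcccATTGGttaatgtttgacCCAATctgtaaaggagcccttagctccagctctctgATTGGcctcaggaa
Idi1, chr13:8885356-8885605, plus strand: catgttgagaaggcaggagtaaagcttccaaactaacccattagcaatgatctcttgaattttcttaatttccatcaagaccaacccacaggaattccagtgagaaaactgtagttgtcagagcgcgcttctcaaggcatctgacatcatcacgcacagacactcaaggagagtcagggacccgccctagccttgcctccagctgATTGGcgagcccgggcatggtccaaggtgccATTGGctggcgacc
Fasn, chr11:120824548-120824797, minus strand: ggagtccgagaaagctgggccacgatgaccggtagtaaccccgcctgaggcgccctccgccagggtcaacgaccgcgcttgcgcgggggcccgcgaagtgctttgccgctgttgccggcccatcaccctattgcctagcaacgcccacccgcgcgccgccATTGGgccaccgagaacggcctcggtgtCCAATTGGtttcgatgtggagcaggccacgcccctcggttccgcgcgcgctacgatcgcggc
CCAAT was found in 16 of the 24 promoters (66.7%) and in 12 of the 14 that belong to sterol enzymes, against 36.0% of all 16749 promoters searched. Among the 14, the start used for Pmvk lay 453 bases inside its counted span. The stretch before that start, which held no CCAAT, is thus part of the counted gene. In Fasn a pair of its 3 matches overlap as CCAATTGG. The sterol element was found in 1 of 24 members, 137 bases before the start of Hmgcs1 and not overlapping CCAAT, against 0.997% of all promoters. The GC box GGGCGG, which Sp1 binds, was in 18 of 24 members (75%), against 43.9% of all promoters and 57.0% of those of tested genes. The E-box CACGTG was in 4 of 24 members (16.7%), against 6.87% of all promoters and 8.12% of those of tested genes. A match is a description of the letters and not a binding site; the printed promoters belong to genes that rose and, with Hmgcs1, to one that was not called.

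Of the 30 genes, 13 rose, 4 fell and 13 were not called. The share called in either direction was 56.7% for the members and 57.4% over all tested genes, so these genes did not stand apart in how often they were called. By direction, 43.3% of members rose against 28.5% of all genes, and 13.3% fell against 28.9%. The median log2 difference was 0.62 over the members and -0.02 over all genes. The groups did not overlap for 11 members that were higher in mutants and 4 that were lower, where over all genes 61.7% did not overlap, 29.2% being higher and 32.6% lower. A called change of at least 2-fold was seen for 8 members upward (17.2% of all genes) and for 3 downward (23.1%). All 6 fatty acid genes were called and 7 of 17 sterol enzymes rose, and the 2 farthest differences were falls, in Scd1 and Abca1. The counts depended on the libraries and on scaling while the members' median stayed positive: against wild types 3 and 4 only, 6 members rose and 3 fell (median 0.59), with 3 sterol enzymes and 3 fatty acid genes among the 6. Over all 15474 genes tested in that comparison, 2923 rose and 3011 fell, so the 6 of 30 members that rose were near the share of all genes. The calls lost in that comparison were those of Mvk, Lss, Ebp, Dhcr7, Scap, Insig2, Acly and Scd2 (edgeR adjusted p between 0.0612 and 0.165), each in the direction reported. With library size alone in place of TMM, 7 rose and 4 fell (median 0.37), under a scaling that moved the median of all genes to -0.26 and gave 3153 genes that rose and 5129 that fell, in place of 4334 and 4390.

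**Figure D1:**
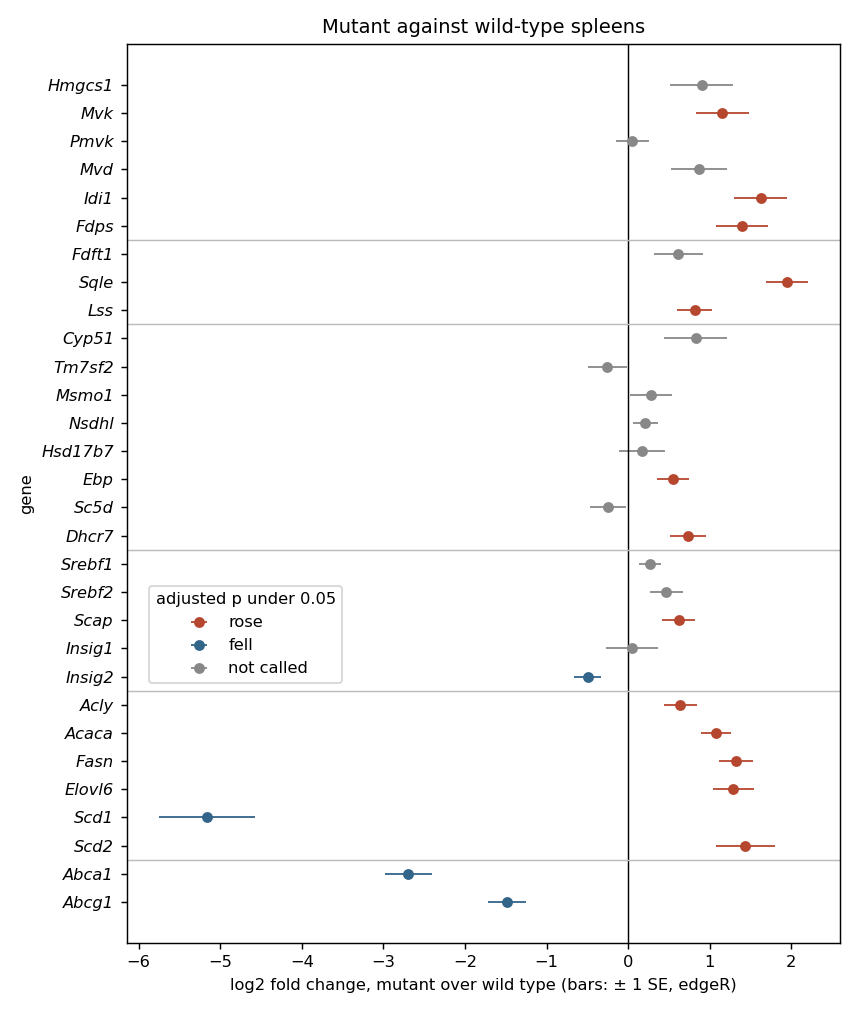
Log2 difference (mutant minus wild type) of the 30 genes with its standard error, grouped by role, from edgeR on counts of 3 mutant and 4 wild-type spleens; colours mark the genes that rose, fell or were not called at an adjusted p under 0.05. Scd1 (-5.16), Abca1 (-2.69) and Abcg1 (-1.49) lie far to the left, and Sqle (1.95) and Idi1 (1.62) reach farthest to the right.

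In the mevalonate pathway, which makes the 5-carbon isoprene units and joins them to farnesyl diphosphate, 3 of 6 enzymes rose (median 1.03). Idi1 (chr13:8885606-8892396), which interconverts the isoprene isomers, had 58.6, 158 and 97.1 CPM in mutants 1 to 3, against 38.0, 36.3, 24.7 and 36.7 CPM in wild types 1 to 4. All mutants lay above all wild types, with means of 105 ± 49.99 CPM in mutants (SD, n = 3) and 33.9 ± 6.21 CPM in wild types (SD, n = 4). The log2 difference was 1.62 (SE 0.32, edgeR adjusted p = 0.00398). Fdps (chr3:89093588-89101967), the farnesyl diphosphate synthase, had 27.4, 77.8 and 50.4 CPM in mutants and 22.3, 19.4, 17.1 and 20.03 CPM in wild types. It too was separated, with a log2 difference of 1.40 (SE 0.32, edgeR adjusted p = 0.00717). Mvk (chr5:114444306-114460590), the mevalonate kinase, rose by 1.15 on the log2 scale (SE 0.32, edgeR adjusted p = 0.0174), but its groups overlapped: it had 7.13, 16.1 and 16.5 CPM in mutants and 7.28, 4.96, 5.31 and 6.25 CPM in wild types. Its call was lost without mutant 2 (log2 0.97, edgeR adjusted p = 0.0615) or wild type 3 (log2 1.09, edgeR adjusted p = 0.0513).

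The other 3 mevalonate enzymes were not called. Hmgcs1 (chr13:119690351-119708260), which condenses acetyl units to HMG-CoA, had 36.8, 132 and 105 CPM in mutants and 51.7, 45.3, 38.6 and 60.0 CPM in wild types. Mutant 1 was below every wild type while mutants 2 and 3 were above them all, and the log2 difference was 0.90 (SE 0.39, edgeR adjusted p = 0.0800). Mvd, which decarboxylates mevalonate diphosphate, had 10.7, 22.7 and 31.1 CPM in mutants and 9.60 to 14.2 CPM in wild types, with a log2 difference of 0.86 (SE 0.34, edgeR adjusted p = 0.0618). Without mutant 1 both were called, Hmgcs1 at a log2 of 1.36 (edgeR adjusted p = 0.00154) and Mvd at 1.27 (edgeR adjusted p = 0.00181). Pmvk, the phosphomevalonate kinase, had 17.8, 27.4 and 23.8 CPM in mutants and 18.0 to 24.5 CPM in wild types, a log2 difference of 0.05 (SE 0.20).

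From farnesyl diphosphate to lanosterol, 2 of 3 enzymes rose (median 0.82). Sqle (chr15:59315092-59331193), the squalene epoxidase and a rate-limiting step of the later pathway, had 38.6, 50.9 and 59.4 CPM in mutants, against 17.5, 12.9, 8.87 and 12.2 CPM in wild types. The lowest mutant was above the highest wild type, and of the 17 sterol enzymes Sqle had the greatest difference: 49.6 ± 10.5 CPM in mutants (SD, n = 3) and 12.9 ± 3.55 CPM in wild types (SD, n = 4), which is 3.86-fold higher (log2 1.95, SE 0.26, edgeR adjusted p = 7.01e-04). Lss (chr10:76531627-76553934), the lanosterol synthase, had 15.5, 20.6 and 24.3 CPM in mutants and 14.0, 10.5, 10.6 and 10.6 CPM in wild types, separated by a narrow gap at wild type 1 (log2 0.82, SE 0.21, edgeR adjusted p = 0.0128). Fdft1, the squalene synthase, had 25.7, 47.8 and 33.6 CPM in mutants and 15.8 to 32.0 CPM in wild types (log2 0.62, SE 0.30, edgeR adjusted p = 0.118). Its span overlaps that of Ctsb on the other strand, so reads of the pair may not be fully separated here. Without mutant 1 it was called (log2 0.89, edgeR adjusted p = 0.0463).

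The 8 enzymes that trim lanosterol to cholesterol changed least, with 2 called and a median of 0.25. Ebp (chrX:8185331-8193512), which moves a ring double bond, had 46.8, 41.2 and 63.7 CPM in mutants and 35.1, 34.7, 40.0 and 27.8 CPM in wild types. The groups were separated only narrowly, between mutant 2 and wild type 3 (log2 0.56, SE 0.20, edgeR adjusted p = 0.0412). The call for Ebp was lost on leaving out mutant 3 (log2 0.36, edgeR adjusted p = 0.124), wild type 1 (0.56, edgeR adjusted p = 0.0880), wild type 2 (0.56, edgeR adjusted p = 0.0739) or wild type 4 (0.46, edgeR adjusted p = 0.0967). Dhcr7 (chr7:143823167-143848410), which makes the final product of one branch, had 27.5, 51.1 and 43.3 CPM in mutants and 27.6, 23.8, 24.4 and 22.1 CPM in wild types, with mutant 1 just under wild type 1 (log2 0.73, SE 0.22, edgeR adjusted p = 0.0221). Its call was lost without mutant 2 (0.51, edgeR adjusted p = 0.0899), mutant 3 (0.70, edgeR adjusted p = 0.0573), or wild type 2, 3 or 4 (0.73, 0.72 and 0.68, with edgeR adjusted p of 0.0557, 0.0548 and 0.0594).

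The rest of this stretch was not called with all libraries in. Cyp51, the lanosterol demethylase, repeated the order of Hmgcs1, with 21.01, 78.7 and 46.1 CPM in mutants and 22.4 to 30.9 CPM in wild types (log2 0.83, SE 0.39, edgeR adjusted p = 0.101). Msmo1, a sterol methyl oxidase, had 13.7, 28.8 and 19.8 CPM in mutants and 15.3 to 19.5 CPM in wild types. In both genes mutant 1 was below every wild type, and without mutant 1 both were called, Cyp51 at 1.28 (edgeR adjusted p = 0.00426) and Msmo1 at 0.60 (edgeR adjusted p = 0.0399). Nsdhl, Hsd17b7, Sc5d and Tm7sf2, which act in the demethylation and in setting the double bonds of the sterol, had log2 differences between -0.25 and 0.21. The span of Tm7sf2 overlaps that of Vps51 on the same strand, so the counts of Tm7sf2 are uncertain.

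**Figure D2:**
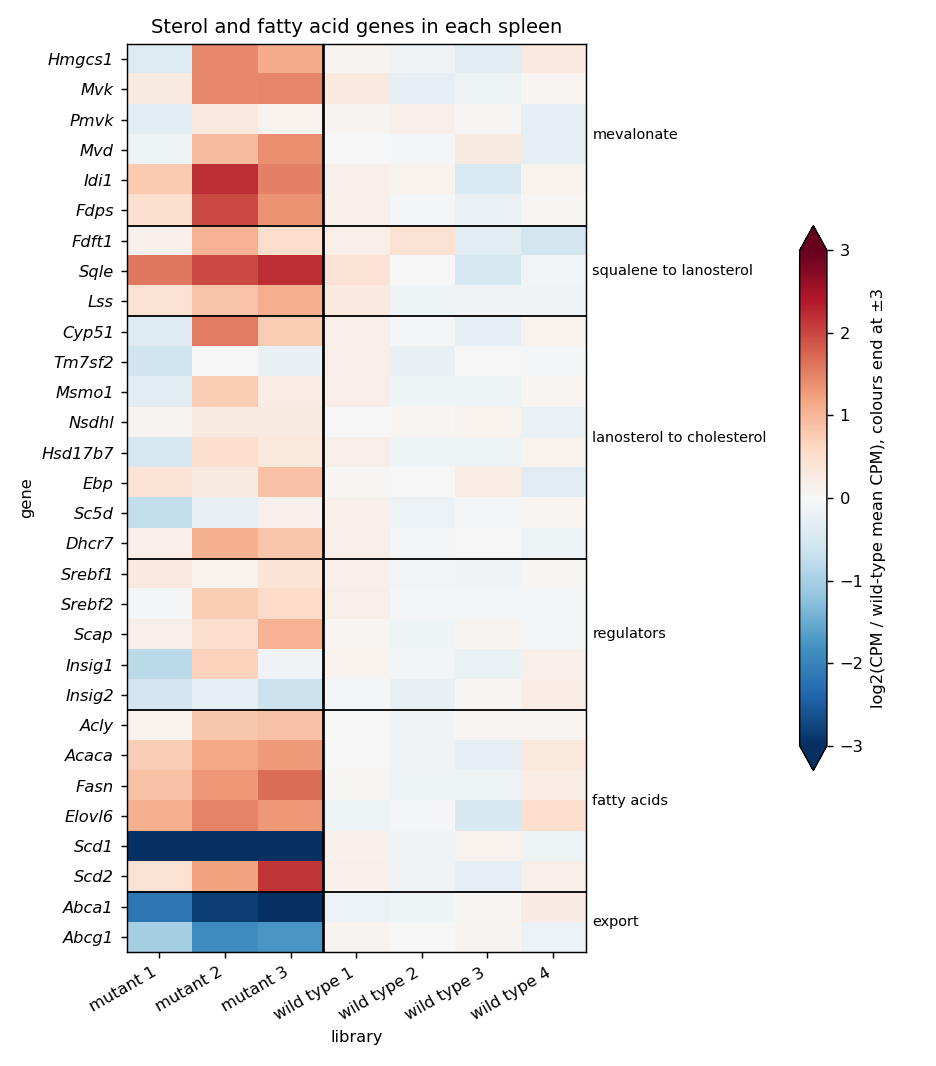
Level of each of the 30 genes in each spleen, as log2 of CPM relative to the wild-type mean, with the 3 mutant spleens to the left of the 4 wild-type spleens and genes ordered by role. Mutant 1 is paler than mutants 2 and 3 through the sterol enzymes, while Scd1, Abca1 and Abcg1 are low in all 3 mutants.

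Among the 5 regulators 1 rose and 1 fell. Scap (chr9:110333288-110384949), the escort of SREBP, had 77.8, 97.9 and 142 CPM in mutants, against 72.2, 63.1, 72.6 and 67.7 CPM in wild types. The groups were separated (log2 0.62, SE 0.20, edgeR adjusted p = 0.0317), yet the call was lost without mutant 2 (0.65, edgeR adjusted p = 0.0572), mutant 3 (0.36, edgeR adjusted p = 0.0775) or any 1 of the wild types (0.58 to 0.64, edgeR adjusted p between 0.0620 and 0.0719). Insig2 (chr1:121304353-121332589), which retains Scap when sterols are plentiful, had 18.1, 21.7 and 17.2 CPM in mutants and 25.6, 23.0, 27.6 and 31.1 CPM in wild types. All mutants lay below all wild types, a 1.41-fold lower level (log2 -0.50, SE 0.17, edgeR adjusted p = 0.0369). That call was lost without mutant 1 (-0.38, edgeR adjusted p = 0.116), mutant 3 (-0.42, edgeR adjusted p = 0.0859) or any 1 of the wild types (log2 from -0.56 to -0.43, edgeR adjusted p between 0.0509 and 0.0819). Insig1, the form that is itself an SREBP target, had 16.9, 47.6 and 27.6 CPM in mutants and 25.8 to 32.9 CPM in wild types; mutant 1 was below and mutant 2 above all wild types, and the log2 difference was 0.05 (SE 0.32).

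The transcription factor genes themselves were not called. Srebf2, whose product mainly drives the sterol genes, had 158, 277 and 242 CPM in mutants and 183, 156, 155 and 157 CPM in wild types (log2 0.47, SE 0.20, edgeR adjusted p = 0.0811). Without mutant 1 it was called (0.76, edgeR adjusted p = 0.00291). Srebf1, whose product mainly drives the fatty acid genes, had 77.5, 68.2 and 84.8 CPM in mutants and 70.6, 60.3, 59.0 and 65.1 CPM in wild types (log2 0.27, SE 0.13, edgeR adjusted p = 0.112). The transcript of a SREBP gene does not show how much of the protein was processed. Srebf1 overlaps Rai1 on the other strand, and whether the counting used strand is not given in the sources used here.

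In fatty acid synthesis all 6 genes were called, 5 upward and 1 downward (median 1.18). Fasn (chr11:120805958-120824547), the fatty acid synthase, had 214, 286 and 375 CPM in mutants and 120, 105, 105 and 137 CPM in wild types. Every mutant was above every wild type, 2.50-fold higher by the fit (log2 1.32, SE 0.21, edgeR adjusted p = 0.00152). Acaca (chr11:84195438-84401651), which makes malonyl-CoA, had 72.9, 96.8 and 106 CPM in mutants and 43.3, 40.6, 36.4 and 53.8 CPM in wild types (log2 1.08, SE 0.19, edgeR adjusted p = 0.00218). Elovl6 (chr3:129532386-129638493), which lengthens palmitate, had 22.3, 29.8 and 26.3 CPM in mutants and 9.69, 10.3, 7.63 and 15.1 CPM in wild types (log2 1.29, SE 0.25, edgeR adjusted p = 0.00370). Both were separated. Acly (chr11:100476352-100528000), which supplies cytosolic acetyl-CoA to both pathways, had 222, 359 and 380 CPM in mutants and 205, 191, 213 and 212 CPM in wild types. Mutant 1 was only just above the wild types (log2 0.64, SE 0.20, edgeR adjusted p = 0.0255), and the call was lost without mutant 2 (0.53, edgeR adjusted p = 0.0897), mutant 3 (0.51, edgeR adjusted p = 0.0816) or any 1 of the wild types (0.61 to 0.65, edgeR adjusted p between 0.0517 and 0.0637).

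The 2 stearoyl-CoA desaturases, which introduce the double bond that makes oleate and palmitoleate, moved in opposite directions. Scd1 (chr19:44394450-44407709) had 29.7, 18.7 and 5.44 CPM in mutants, against 707, 601, 689 and 575 CPM in wild types. The highest mutant had a small part of the lowest wild type's level, with means of 18.0 ± 12.2 CPM in mutants (SD, n = 3) and 643 ± 64.6 CPM in wild types (SD, n = 4). The fitted level was 35.8-fold lower in mutants (log2 -5.16, SE 0.59, edgeR adjusted p = 4.43e-04), and it rests on 2139 counts in mutants and 110954 in wild types. By mean CPM among all 24062 genes counted Scd1 ranked 8159th in mutants and 141st in wild types. Of the tested genes, 162 (1.07%) had a log2 difference as low or lower. Leaving out each library in turn gave log2 differences from -5.64 to -4.73.

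Scd2 (chr19:44293676-44306862), which lies beside Scd1 on the same chromosome, had 224, 379 and 727 CPM in mutants and 183, 153, 134 and 184 CPM in wild types. The groups were separated, with means of 443 ± 258 CPM in mutants (SD, n = 3) and 164 ± 24.1 CPM in wild types (SD, n = 4), 2.71-fold higher by the fit (log2 1.44, SE 0.36, edgeR adjusted p = 0.0111). The order of the mutants was opposite in the pair: mutant 3 was lowest for Scd1 and highest for Scd2. Without mutant 3 the log2 difference of Scd2 was 0.90, still called, and with wild types 3 and 4 as the sole controls it was 1.48 but not called (edgeR adjusted p = 0.0653). The genes are similar, with open reading frames 89.6% identical when aligned, but only 145 of 5406 stretches of 50 bases in the Scd2 transcript occur unchanged in Scd1, so most of the transcript can be told apart at that length.

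**Figure D3:**
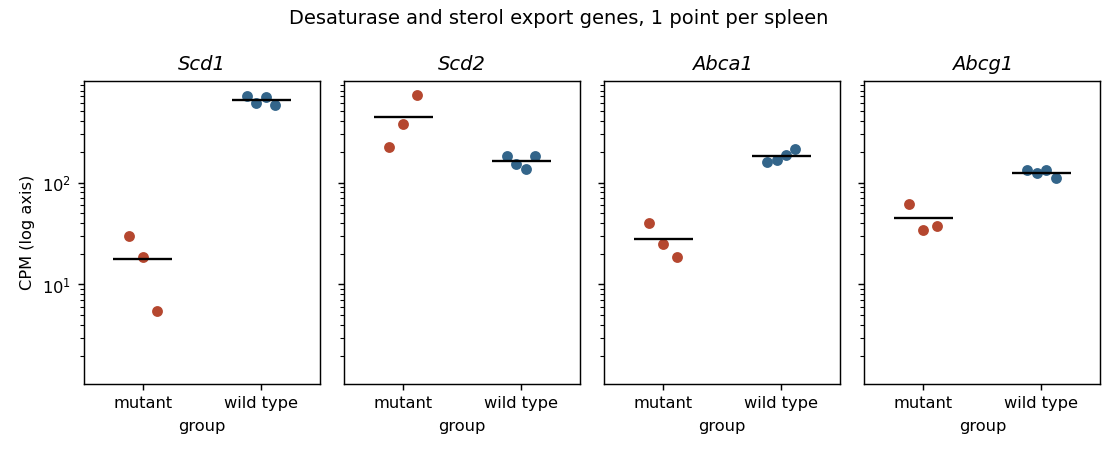
Level in CPM, on a log axis, of Scd1, Scd2, Abca1 and Abcg1 in each of the 3 mutant spleens (left) and 4 wild-type spleens (right); horizontal lines mark group means. The groups do not overlap for any of the 4 genes: Scd1, Abca1 and Abcg1 are lower in mutants and Scd2 is higher.

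Per kilobase of exon Scd1 and Scd2 exchanged places. The length used is the union of all annotated exons, which can be longer than the transcripts present, so comparisons between genes are rough. Scd2 had 81.1 ± 47.1 CPM per kb in mutants (SD, n = 3) and 29.95 ± 4.42 in wild types (SD, n = 4), and Scd1 had 3.67 ± 2.49 CPM per kb in mutants and 131 ± 13.2 in wild types. Scd2 had the highest mean of the 30 genes in mutants, and Scd1 had it in wild types. Acly followed in mutants and came next after Scd1 in wild types, with 60.7 ± 16.2 and 38.9 ± 1.91 CPM per kb. Among the sterol enzymes Idi1 had 29.8 ± 14.3 CPM per kb in mutants and 9.68 ± 1.77 in wild types. Tm7sf2 (1.06 in mutants, 1.26 in wild types), Hsd17b7 (1.44 and 1.28) and Lss (1.87 and 1.06) lay at the low end in both groups. That place depends on the length used. Lss, at 20.1 CPM in mutants, was divided by 10787 bases. Nsdhl, at 20.9 CPM in mutants, was divided by 2853 bases, which gave 7.34 CPM per kb.

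Several cell types express Scd1, among them fat cells, so their markers are set beside it. The 7 fat-cell markers summed to 5.08 to 29.1 CPM in mutants and 5.37 to 70.2 CPM in wild types, and wild type 1, with the lowest wild-type sum (5.37 CPM), had the highest Scd1 (707 CPM). The B-cell and monocyte markers given above were, like Scd1, low in every mutant and lowest in mutant 3. Mutants 1 and 2 stood in the opposite order for the B-cell markers (100 and 211 CPM) and for Scd1. The red pulp macrophage markers were lowest in mutant 3 too (347 to 2002 CPM in mutants, 2252 to 2607 CPM in wild types, 4 of 10 fell), but mutant 1, at 2002 CPM, was only a little below the wild types. The part of any of these cells in the fall of Scd1 was not tested.

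Both export transporters fell. Abca1 (chr4:53030789-53159895), which loads cholesterol onto apolipoprotein A-I, had 40.2, 25.2 and 18.6 CPM in mutants, against 160, 165, 186 and 214 CPM in wild types. The level was 6.47-fold lower (log2 -2.69, SE 0.29, edgeR adjusted p = 3.65e-04). Abcg1 (chr17:31057694-31117981), which passes cholesterol to HDL particles, had 62.2, 33.9 and 37.3 CPM in mutants and 133, 123, 133 and 111 CPM in wild types, 2.80-fold lower (log2 -1.49, SE 0.23, edgeR adjusted p = 0.00136). No mutant reached the wild-type range for either, and mutant 1 was the highest of the mutants for both. Leaving out each library in turn gave log2 differences from -2.96 to -2.47 for Abca1 and from -1.72 to -1.35 for Abcg1. Monocytes and red pulp macrophages are known for high Abca1 and Abcg1. The monocyte markers were low in all 3 mutants, with the sums given above. The red pulp macrophage markers were low in mutants 2 and 3 (899 and 347 CPM). In mutant 1, at 2002 CPM, they were only a little below the wild types (2252 to 2607 CPM). The part of these cells in the falls of Abca1 and Abcg1 was not tested.

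Ratios of 2 members within a library do not depend on scaling. The ratio of Scd2 to Scd1 counts was 7.53, 20.3 and 134 in mutants and 0.259, 0.255, 0.195 and 0.319 in wild types, a log2 difference of 6.75. The ratio of Abcg1 to Abca1 was 1.55, 1.35 and 2.01 in mutants and 0.827, 0.746, 0.715 and 0.517 in wild types, a log2 difference of 1.22. Both were separated completely, for which an exact two-sided permutation test gives p = 0.0571, the smallest that the 35 splits of 3 against 4 spleens allow (0.114 adjusted over the 4 ratios computed). The ratio of Insig2 to Insig1 was 1.07, 0.457 and 0.621 in mutants and 0.805, 0.819, 1.07 and 0.945 in wild types (log2 difference -0.42, exact permutation p = 0.343, adjusted 0.457). The ratio of Srebf1 to Srebf2 was 0.492, 0.246 and 0.350 in mutants and 0.385, 0.387, 0.380 and 0.414 in wild types (log2 difference -0.17, exact permutation p = 0.629, adjusted 0.629). For the SREBP genes mutant 1 was above and the others below the wild types, so the mutants spread to both sides.

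The mutants did not move as one. Of the 17 sterol enzymes, mutant 1 was the lowest mutant for 16, and mutant 2 was the highest for 11 and mutant 3 for 6. Mutant 1 was above all wild types for 5 of the 17 and below all of them for 7, whereas mutant 2 was above all for 15 and mutant 3 for 14. The summed level of the 17 was 391, 813 and 678 CPM in mutants 1 to 3 and 388, 352, 319 and 343 CPM in wild types 1 to 4, so that mutant 1 was level with wild type 1. Without mutant 1, 12 of the 17 were called higher, against 7 with it, and the members that rose in all numbered 19 in place of 13; without mutant 2 or mutant 3 the sterol enzymes called were 5. Calls over all genes moved the same way: 5010 rose without mutant 1, 3785 without mutant 2 and 3985 without mutant 3, against 4334 with all spleens. In the fatty acid genes mutant 1 was lowest for 5 of 6 but still above all wild types for 5.

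Beside these differences stand those of the cells. As the median log2 level over a list relative to the wild-type mean, mutants 1, 2 and 3 had 0.09, 0.95 and 0.82 for the sterol enzymes, 0.61, 1.20 and 1.32 for the fatty acid genes and 2.88, 4.56 and 3.91 for the immature T-cell markers. For the dividing-cell markers they had 2.01, 2.22 and 2.05, which does not set mutant 1 apart. Erythroid markers summed to 14785 CPM in mutant 1, against 2194 and 3132 CPM in mutants 2 and 3, so the spleen with the lowest sterol enzymes held the most erythroid RNA of the mutants. Wild type 2, with 11436 CPM of erythroid markers, had 352 CPM of sterol enzymes, within the range of the other wild types. The part of any of these in the spread between mutants was not tested.

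**Figure D4:**
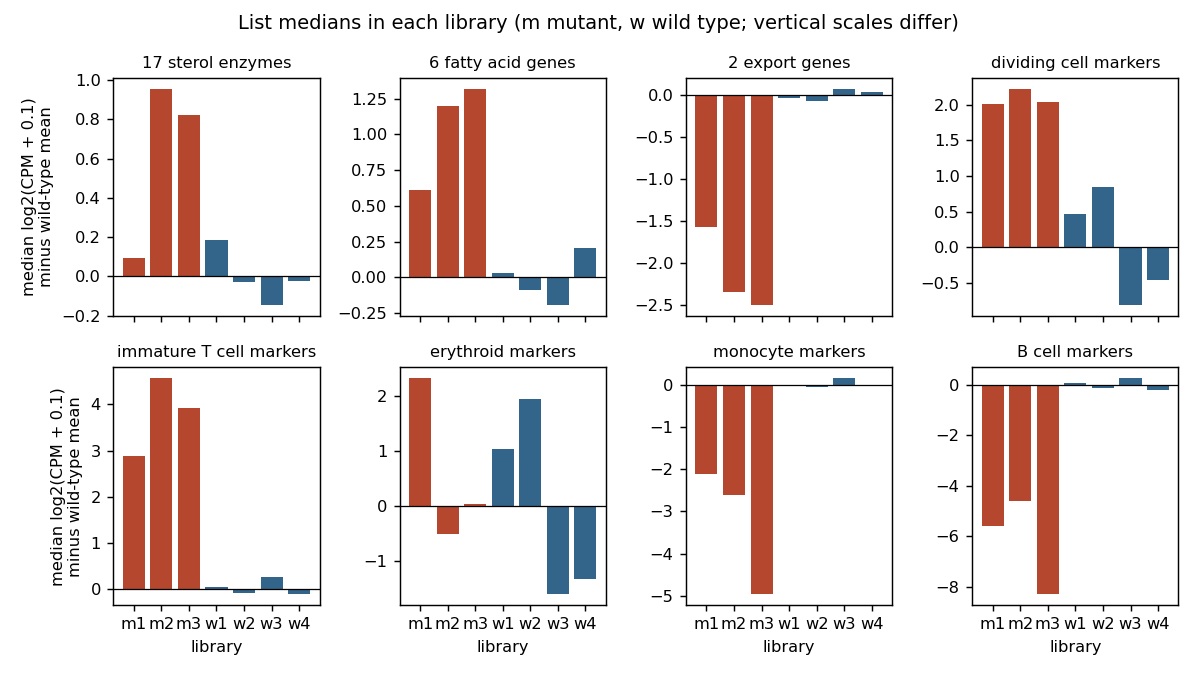
Median over each of 8 gene lists of log2(CPM + 0.1) minus the wild-type mean, as 1 bar per spleen in its own panel with its own vertical scale, mutants m1 to m3 to the left of wild types w1 to w4. Mutant 1 lies near the wild types for the sterol enzymes (0.09) and apart from mutants 2 and 3 (0.95 and 0.82), while the 3 mutants lie together for the dividing-cell markers (2.01 to 2.22).

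The neighbouring steps that the 30 leave out were read from 7 further lists of 72 genes, of which 70 were tested. Of these, 15 rose and 15 fell (median 0.08, or -0.15 with library size alone). That is 21.4% each way, below the 28.5% of all genes that rose and the 28.9% that fell. Each list's count below is to be read against these shares over all genes. Against wild types 3 and 4 only, 7 of the pathway genes rose and 10 fell, where 2923 and 3011 of all 15474 genes did. Of the 5 other sterol steps 4 rose (80%, median 1.32), beside 28.5% of all genes. Acat2, which condenses acetyl-CoA at the entry of the pathway, had 10.7, 29.5 and 24.8 CPM in mutants and 7.08 to 10.1 CPM in wild types (log2 1.32, SE 0.34, edgeR adjusted p = 0.0119); the call was lost without mutant 2 (1.00, edgeR adjusted p = 0.0505) and against wild types 3 and 4 only (1.43, edgeR adjusted p = 0.0631). Idi2, a second isomerase gene at very low level, had 0.701, 0.388 and 4.85 CPM in mutants and 0.0664 to 0.211 CPM in wild types (log2 4.05, SE 0.96, edgeR adjusted p = 0.00849), and was not called against wild types 3 and 4 only (log2 3.75, edgeR adjusted p = 0.0710).

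Of 9 tested genes of sterol uptake and trafficking 1 rose (11.1%) and 2 fell (22.2%), beside 28.5% and 28.9% of all genes. The receptor genes Lrp1 (log2 -1.34) and Vldlr (log2 -1.19) were the ones that fell, and both calls were lost without mutant 2 (edgeR adjusted p = 0.0687 and 0.0685) and against wild types 3 and 4 only (edgeR adjusted p = 0.0657 and 0.0723). The call of Vldlr was also lost without wild type 4 (log2 -0.93, edgeR adjusted p = 0.0655). Tmem97, a partner of the cholesterol carrier NPC1, had 40.4, 72.4 and 81.6 CPM in mutants and 8.52 to 15.8 CPM in wild types (log2 2.54, SE 0.30, edgeR adjusted p = 5.13e-04). Of 13 genes of the LXR and oxysterol list 7 fell (median -0.93), beside 28.9% of all genes; against wild types 3 and 4 only, 4 fell (median -0.97). Mylip, a ubiquitin ligase gene known as an LXR target, had 38.1, 24.4 and 21.5 CPM in mutants and 110 to 136 CPM in wild types (log2 -2.18, SE 0.23). Cyp27a1, which makes 27-hydroxycholesterol, had 5.42, 3.17 and 1.14 CPM in mutants and 39.9 to 62.4 CPM in wild types (log2 -3.87, SE 0.52). Apoe, which carries exported cholesterol and is a macrophage gene, had 340, 235 and 419 CPM in mutants and 778 to 1063 CPM in wild types (log2 -1.48, SE 0.23). All 3 were separated and were called in edgeR and in every alternative run.

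On the fatty acid side, 2 of 14 further tested genes rose (14.3%) and 4 fell (28.6%), beside 28.5% and 28.9% of all genes. Fads2, a desaturase of polyunsaturated fatty acids, had 27.3, 51.1 and 46.6 CPM in mutants and 5.22 to 11.7 CPM in wild types (log2 2.27), and Mcat, the malonyl transferase of mitochondrial fatty acid synthesis, rose by 1.31 on the log2 scale. Acacb, the form of acetyl-CoA carboxylase tied to fatty acid oxidation, had 5.42, 3.14 and 2.60 CPM in mutants and 13.1 to 17.1 CPM in wild types (log2 -2.04), opposite to Acaca. Elovl7 (log2 -2.90) and Thrsp (log2 -3.64), both low in wild types too, fell as well. Of the 12 genes that carry isoprenoids to other products 5 rose (41.7%), beside 28.5% of all genes. Their median was 0.44, or 0.18 with library size alone. Against wild types 3 and 4 only 2 rose, where 2923 of all 15474 genes did. Without mutant 1, 8 rose, where 5010 of all 15315 genes did. Fntb, which was called in every alternative run and is the farnesyltransferase beta subunit, had 49.0, 39.2 and 39.7 CPM in mutants and 14.3 to 22.3 CPM in wild types (log2 1.27). Among 7 genes of the SREBP transport and cleavage machinery 1 fell (14.3%), beside 28.9% of all genes. It was Sec24d, of the vesicle coat that carries Scap. Sec24d had 10.9, 8.25 and 5.57 CPM in mutants and 25.3 to 34.7 CPM in wild types (log2 -1.80, SE 0.26). Of 10 genes of fatty acid oxidation 3 rose and 1 fell (median 0.38), beside 28.5% and 28.9% of all genes. The 3 that rose, Hadhb, Hadha and Cpt1a, were not called against wild types 3 and 4 only (edgeR adjusted p = 0.0743, 0.0864 and 0.259) or with library size alone (edgeR adjusted p = 0.157, 0.264 and 0.234). Hadha was also lost without mutant 2 or wild type 1, 3 or 4 (edgeR adjusted p between 0.0605 and 0.0668), and Cpt1a without any 1 spleen but wild type 3 (edgeR adjusted p between 0.0654 and 0.114). The gene that fell, Pdk4 (log2 -2.43), was not called without mutant 1 or 2 or wild type 3 or 4 (edgeR adjusted p between 0.05005 and 0.0665).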

How the data were processed

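RNA-seq libraries of 3 mutant and 4 wild-type mouse spleens were read from a table of raw counts per gene that the authors deposited; none of its columns of per-sample values was left unused (0). The build was mm10 and the tools were TopHat2 2.0.12, Subread 1.4.6 with featureCounts, edgeR and bcl2fastq 2.17.1.14, per the submitters' processing notes. The sources used here do not give their order, their settings or any use of strand. The deposited CPM table equals those counts times 1 constant per library (largest relative deviation 5.11e-15), so its columns sum to between 849108 and 1164022. It holds no value for 4455 genes at 0 in every library. It was used for 2 alternatives only.

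From the counts, edgeR 4.0.16 (R 4.3.3) gave TMM factors, a filter on low counts (filterByExpr) and quasi-likelihood tests of mutant against wild type with no covariate, with Benjamini-Hochberg adjustment over 15188 genes and calls at 0.05. The procedure was first tested on simulated data, with 197 changed genes among 15014 tested. It called 5.15% of the 2-fold changes and 58% of the 4-fold changes. Of its calls 8.70% were false, above the 5% aimed at. In the spleens far more genes were called, 8724 of 15188 (57.4%), and the Benjamini-Hochberg cut on p depends on that share. The simulated shares thus do not give the power or the false share of the spleen comparison. Alternatives used limma 3.58.1, DESeq2 1.42.0 and other settings (22 in all). Ratios were tested by exact permutation over 35 splits. Lengths, coordinates and overlaps came from GENCODE M21 and the deposited table (starts made 1-based), and promoter sequences from RefSeq on GRCm38.p6, with Biopython 1.88 for the alignment. Per-kilobase levels use the union of exons. Replicate numbers come from the labels, which do not say that equal numbers share a litter or day. Across genes, the deviations of same-numbered spleens correlated at 0.08, -0.22 and 0.12, and those of differently numbered spleens at -0.28 to 0.29. Same-numbered spleens did not stand out, but with 3 spleens a group this cannot show that they were unpaired. Replicates of a group differed by more than sampling noise (chi-square per degree of freedom 99.8 to 506). The labels name separate spleens.

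All 30 members are named, with Brca1 and, of each pathway list, up to 3 called genes with the smallest p in each direction; of those, the genes whose calls a reader needs are given in full. Members and lists were chosen with earlier results of these data known. Adgre1, 1 of the 8 monocyte markers, was not analysed here. Some genes that this rule names are not reported here.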

Additional observations from a re-analysis of the deposited data

Results flagged for a closer look

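Over the wild-type values of 34 genes or ratios, each a group of 4 spleens, a spleen was set apart where its gap to the nearest of the others exceeded Dixon's critical value. Chance sets apart about 1 in 20 such groups, and 3 were found. Idi1 was low in wild type 3, at 24.7 CPM, against 36.3 to 38.0 CPM in the other wild types, and all 3 mutants were above all of these. Lss was high in wild type 1, at 14.0 CPM, against 10.5 to 10.6 CPM in the others. Srebf2 was high in wild type 1, at 183 CPM, against 155 to 157 CPM in the others; mutant 1, at 158 CPM, lay between them.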

How the results depend on the processing

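Of the 17 called members, 8 kept their call under all 22 alternatives (Idi1, Sqle, Acaca, Fasn, Elovl6, Scd1, Abca1 and Abcg1), and none of the 17 changed direction; 7 uncalled members were called under some alternative. In place of 13 members that rose and 4 that fell, 7 rose with library size alone, 6 with an adjusted p under 0.01, and 6 (with 3 that fell) against wild types 3 and 4 only, an alternative chosen after seeing the data. Over all genes, 2924 fell at an adjusted p under 0.01, against 4390. Leaving out each spleen in turn gave 9 to 19 members that rose, 3 to 4 that fell and 9 to 21 other pathway genes that fell. Over all genes the same runs gave 3635 to 5010 that rose and 3674 to 4811 that fell. With library size alone the median gene moved to -0.26 (3153 genes rose and 5129 fell) and with upper quartile factors to -0.18 (3636 rose and 4964 fell), so each member's difference shifts with it. Of the other pathway genes, 7 rose against wild types 3 and 4 only, and 8 fell at an adjusted p under 0.01, against 15 each way. Mvk, Lss, Ebp, Dhcr7, Scap, Insig2, Acly and Scd2 lost their calls both at 0.01 and against wild types 3 and 4 only.

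With the replicate block, over 3 spleens a group, 5 members rose and 3 fell, 8 other pathway genes rose, and 2945 genes rose and 3108 fell in all. Fdps lost its call under the block (log2 1.29, edgeR adjusted p = 0.0513). So did Mvk, Lss, Ebp, Dhcr7, Scap, Insig2, Acly and Scd2 (edgeR adjusted p between 0.0694 and 0.188). Whether equal numbers mark pairs is not given by the labels, and the block leaves out wild type 4. Under the block the log2 difference was -0.067 for Pmvk and -0.025 for Insig1, the opposite sign to that reported.

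Of the uncalled members 6 changed sign under some alternative. Pmvk was -0.19 with library size alone, -0.11 with upper quartile factors and -0.12 to 0.29 on leaving out a spleen. Insig1 was -0.20 and -0.11 under those scalings, -0.14 by limma-voom, -0.059 on the log2(deposited CPM + 1) scale, -0.065 on the log2(deposited CPM + 0.1) scale and -0.44 to 0.43 on leaving out a spleen. With library size alone Nsdhl was -0.033 and Hsd17b7 -0.085. On leaving out a spleen Hsd17b7 ran from -0.058 to 0.51, Msmo1 from -0.048 to 0.60 and Sc5d from -0.46 to 0.035. The Srebf1 to Srebf2 ratio ran from -0.41 to 0.087, the positive value without mutant 2. The cause of these moves was not tested. With 3 and 4 spleens, differences below 2-fold rest on few degrees of freedom, and a member not called is not shown to be unchanged.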
